A study of Mus musculus with 9 samples.

Results

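The actin cytoskeleton assembly genes described here are 57 genes, chosen by symbol from the 26358 genes of the deposited table: the 2 cytoplasmic actins, the 9 listed genes of the Arp2/3 complex, its activators, formins and Spire proteins, Ena/VASP proteins, monomer binding proteins, the cofilin family and its kinases and phosphatases, capping protein, tropomyosins, crosslinkers, membrane linkers and myosin heavy chains. Of these, 56 passed the filter on low counts and were tested, and Cap2, a cyclase-associated protein, did not. Poly(A) RNA of mouse oocytes was sequenced in 9 libraries, 3 in each of 3 groups. Cryopreservation-2 oocytes were frozen in a straw with EG at 17.5%, trehalose at 1 M and PVA/Fe3O4/GO nanoparticles. For cryopreservation-1 the carrier was a cryotop (a thin strip) and the solution held EG and DMSO at 15% each and sucrose at 0.5 M. The third group is labelled fresh. Carrier, solutes and nanoparticles differ together between the methods, and strain, age, oocyte stage and the number of oocytes per library are not given in the labels.

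Actin exists as single subunits and as filaments, and cells keep the 2 pools in exchange. The Arp2/3 complex starts branched filaments and formins with Spire start unbranched ones, profilin and thymosins bind the subunits, cofilin cuts filaments and capping protein, tropomyosins and crosslinkers stabilise or bundle them. In mouse oocytes a cytoplasmic meshwork built by Fmn2 and Spire proteins moves the spindle to the cortex, the Arp2/3 complex maintains a thick cortical cap over it, and radixin and its relatives tie cortical actin to the membrane.

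In cryopreservation-2 against fresh oocytes, 6 of 56 tested members passed the test (10.7%, against 5.38% of all 17545 genes tested): Actg1, Arpc3, Tmsb10, Capzb and Tpm4 rose (8.93%, against 3.18% of all genes) and Tpm3 fell (1.79%, against 2.2%; edgeR quasi-likelihood test, Benjamini-Hochberg adjusted p under 0.05). Against cryopreservation-1, cryopreservation-2 oocytes had 4 of 56 called (7.14%, against 2.75% of all genes), with Tmsb10 and Tpm4 higher (3.57%, against 1.5%) and Tpm3 and Actn4 lower (3.57%, against 1.25%). Between cryopreservation-1 and fresh oocytes none of the 56 passed edgeR's adjusted threshold, as none of the 17545 genes did (0.0%). The Tpm3 fall was not present once reads of its near-identical copy Tpm3-rs7 were added, as described with the tropomyosins.

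The start regions of the 4 called members with the largest rises in cryopreservation-2 over fresh oocytes are shown so that they can be compared. They are RefSeq stretches within the 250 bases before a transcription start (GRCm38.p6), without bases that lie in an annotated exon, and are read along the gene. RefSeq gives 3 such stretches for Tmsb10, and the one shown adjoins the start of the gene in the deposited table. The Tpm4 stretch lies inside the gene, which the deposited table places at chr8:72130174-72153142, before a RefSeq start within it. Actg1 is chr11:120348543-120348745 on the minus strand, Tmsb10 is chr6:72958489-72958578 on the minus strand, Arpc3 is chr5:122391628-122391877 on the plus strand and Tpm4 is chr8:72135050-72135258 on the plus strand. Capitals mark matches, on either strand, to the GC box GGGCGG, to the sequence CCAAT bound by nuclear factor Y, to the E-box CACGTG, to the TATA box TATAAA, to the homeodomain core TAATTG, or to the CArG box bound by serum response factor. Adjoining matches run together.
Actg1: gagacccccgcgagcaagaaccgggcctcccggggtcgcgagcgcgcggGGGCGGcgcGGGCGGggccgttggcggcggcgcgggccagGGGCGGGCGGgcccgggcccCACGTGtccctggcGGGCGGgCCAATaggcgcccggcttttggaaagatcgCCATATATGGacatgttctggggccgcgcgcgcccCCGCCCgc
Tmsb10: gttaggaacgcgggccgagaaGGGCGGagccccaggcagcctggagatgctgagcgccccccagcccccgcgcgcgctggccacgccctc
Arpc3: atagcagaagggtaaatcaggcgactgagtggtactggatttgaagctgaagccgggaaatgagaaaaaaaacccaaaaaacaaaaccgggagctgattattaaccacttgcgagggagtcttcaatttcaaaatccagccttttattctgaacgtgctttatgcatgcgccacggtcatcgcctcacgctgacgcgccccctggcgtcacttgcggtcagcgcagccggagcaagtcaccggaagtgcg
Tpm4: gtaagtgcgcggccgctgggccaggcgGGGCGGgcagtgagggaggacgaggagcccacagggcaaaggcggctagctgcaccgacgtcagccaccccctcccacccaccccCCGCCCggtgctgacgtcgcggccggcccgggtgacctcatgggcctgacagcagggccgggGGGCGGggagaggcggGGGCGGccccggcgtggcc
The Actg1 stretch held a CArG box beginning 90 bases before the start, a motif found before 1.62% of the 27025 genes with a promoter entry and before 2 of the 51 members with one, Actg1 and Arpc4. GGGCGG stood before 38 of those 51 members (74.5%) and 35.4% of all genes, CCAAT before 37.3% and 37.5%, CACGTG before 11.8% and 6.86%, TAATTG before 5.88% and 8.3%, and TATAAA before 3.92% and 14.3%. The Arpc3 stretch held none of the 6 motifs.

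Total counts lay between 49337232 and 80877288 per library, with all 3 cryopreservation-2 libraries lowest, and the 57 members took 0.559% to 0.685% of them. A count of 0 allows up to 3 counts, or 0.0372 to 0.0575 CPM (counts scaled by library size with TMM), and these limits cover counting error only. Fewer oocytes that hold RNA of a gene and less of it in each oocyte cannot be told apart in such bulk libraries. Markers of oocytes took 1.02% to 1.87% of counts in cryopreservation-2, 1.15% to 1.73% in cryopreservation-1 and 1.2% to 1.73% in fresh libraries. Markers of cumulus and granulosa cells took 0.112% to 0.175% in cryopreservation-2, 0.101% to 0.124% in cryopreservation-1 and 0.0938% to 0.124% in fresh libraries, most of it Serpine2, and immune markers at most 0.00149%. Stromal and endothelial markers took 0.0115% to 0.0208% of counts in cryopreservation-2, 0.0106% to 0.0185% in cryopreservation-1 and 0.0102% to 0.0171% in fresh libraries. Ptx3, Ptprc and Col1a1 were at 0 in most libraries, with a highest count of 14. Other listed markers were present in every library, among them Cyp19a1 (1671 to 5264 counts), C1qb (93 to 802) and Pecam1 (3634 to 10767). None of the 6 tested cumulus, 3 tested immune and 12 tested oocyte markers passed the test in any comparison. Of the 7 tested stromal and endothelial markers, Myh11 and Krt8 passed the test in cryopreservation-2 against fresh, both upward, with 36 to 139 Krt8 counts in cryopreservation-2, 96 to 205 in cryopreservation-1 and 0 to 4 in fresh libraries. Their part in the changes of the members was not tested. Library replicates 1 of cryopreservation-2, 3 of cryopreservation-1 and 3 of fresh had the most genes at 0 in their groups. Each count below was repeated without them. Then 3 members (Actg1, Arpc3 and Tmsb10) stayed called in cryopreservation-2 against fresh, where 1.07% of all genes were called (edgeR, Benjamini-Hochberg adjusted p). In cryopreservation-2 against cryopreservation-1 no member stayed called, as none of all genes did (0.0%).

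Levels between genes are compared by the deposited FPKM, which are per length. Radixin (Rdx) had the highest mean of the members, 323 FPKM over the 9 libraries (262 to 437). The Arp2/3 subunits Arpc1b and Arpc2 followed at 177 and 113 FPKM. Then came Actb at 53.4, Arpc5l at 52.0, the nucleator Spire1 at 37.2, the crosslinker Actn4 at 34.4, the monomer binding profilin Pfn1 at 31.1, the transport motor Myo5b at 30.9 and the Arp2/3 activator Wasl at 27.7 FPKM. Neighbours in this order, such as Actb and Arpc5l or Pfn1 and Myo5b, had library ranges that overlapped. At the low end, the crosslinker Flna averaged 0.117, Cap1 0.0762, the formin Diaph2 0.0302 and Cap2 0.0131 FPKM.

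**Figure D1:**
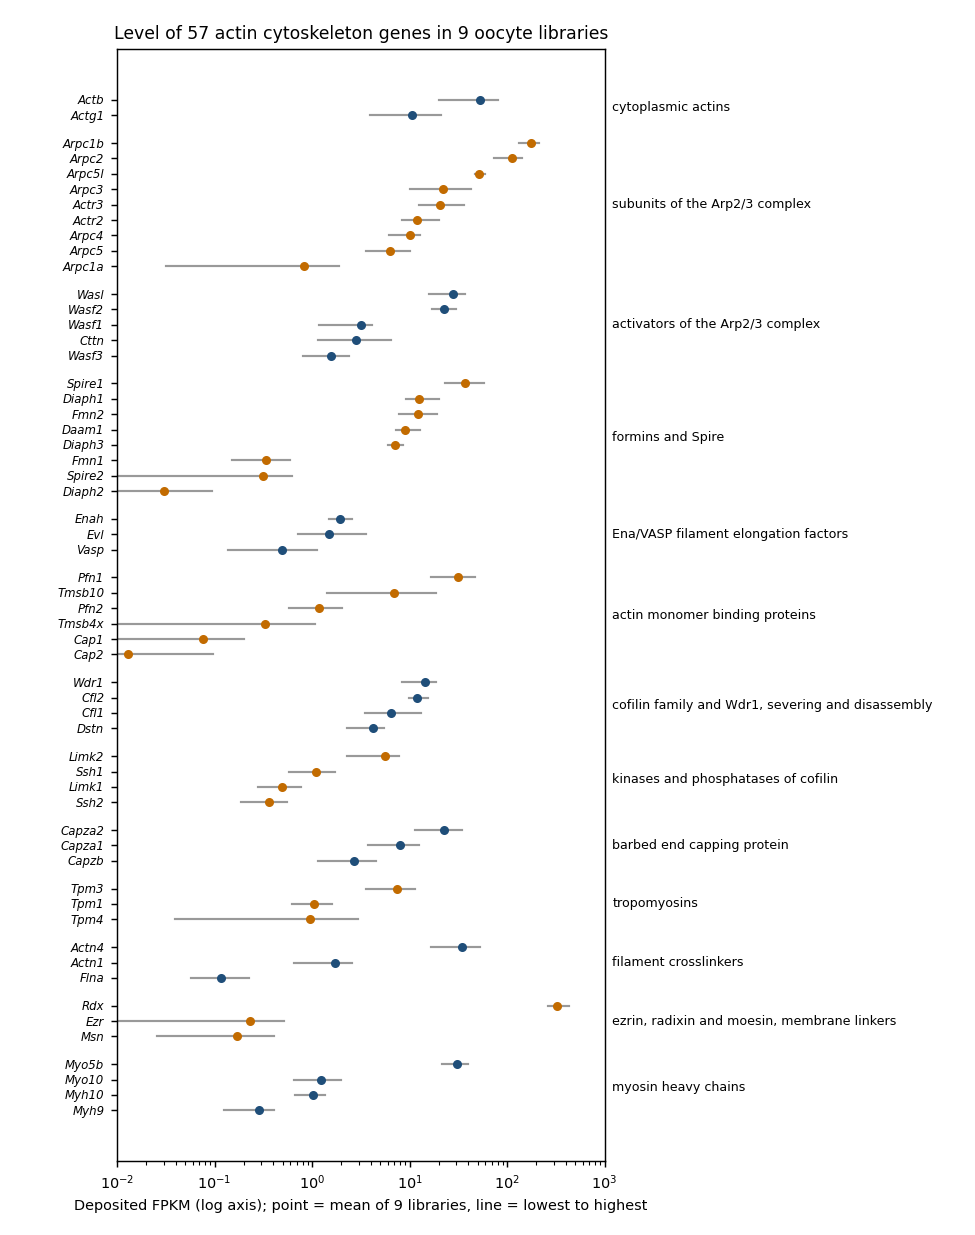
Deposited FPKM (log axis) of all 57 members by role, with points for the mean of 9 libraries and lines for the lowest to the highest library; lines that reach the left edge include a library at 0. Rdx, at a mean of 323 FPKM, and Arpc1b, at 177, stand highest. Classes differ in spread, with means from 4.27 to 14.5 FPKM for the severing genes and from 0.169 to 323 for the membrane linkers.

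Of the 2 cytoplasmic actins, which form the filaments, Actb carried most of the message and Actg1 changed. Actg1 had 42.7, 59.9 and 47.6 CPM in cryopreservation-2, 28.1, 29.8 and 22.5 in cryopreservation-1 and 16.9, 13.5 and 24.6 in fresh libraries. Every cryopreservation-2 library was above every other library, while cryopreservation-1 and fresh overlapped. Actg1 was 2.73-fold higher in cryopreservation-2 than in fresh oocytes (log2 fold change 1.45 ± 0.27 SE, edgeR Benjamini-Hochberg adjusted p = 0.0188). Its log2 difference of 0.90 ± 0.27 from cryopreservation-1 missed the threshold (edgeR adjusted p = 0.0976). Under 3 of 20 alternatives this difference was called, by DESeq2 (adjusted p = 0.014) and by limma with a mean of at least 1 FPKM (adjusted p = 0.037 and 0.047). The call against fresh was lost without fresh replicate 1 or without replicate 2 or 3 of cryopreservation-2 (edgeR adjusted p = 0.0627, 0.0656 and 0.0592). Actb had 61.4, 185 and 142 CPM in cryopreservation-2, 247, 248 and 134 in cryopreservation-1 and 141, 201 and 110 in fresh libraries. These 3 groups overlapped, and the log2 fold change of Actb was -0.22 ± 0.40 SE in cryopreservation-2 against fresh (edgeR adjusted p = 0.819). Of the summed FPKM of both actins, Actg1 made up 30.3% ± 9.42 in cryopreservation-2, 11.9% ± 2.29 in cryopreservation-1 and 11.8% ± 6.11 in fresh libraries (SD, n = 3 each). The summed level itself was 33.8, 85.6 and 68.2 FPKM in cryopreservation-2, 89.4, 90.2 and 52.0 in cryopreservation-1 and 52.5, 62.6 and 42.5 in fresh libraries, so the groups overlapped. Actg1 shares 56.7% of its 50-base words with other genes or pseudogenes. With 6 of those copies added, its log2 fold change in cryopreservation-2 against fresh was 1.47 (edgeR adjusted p = 0.0183).

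**Figure D2:**
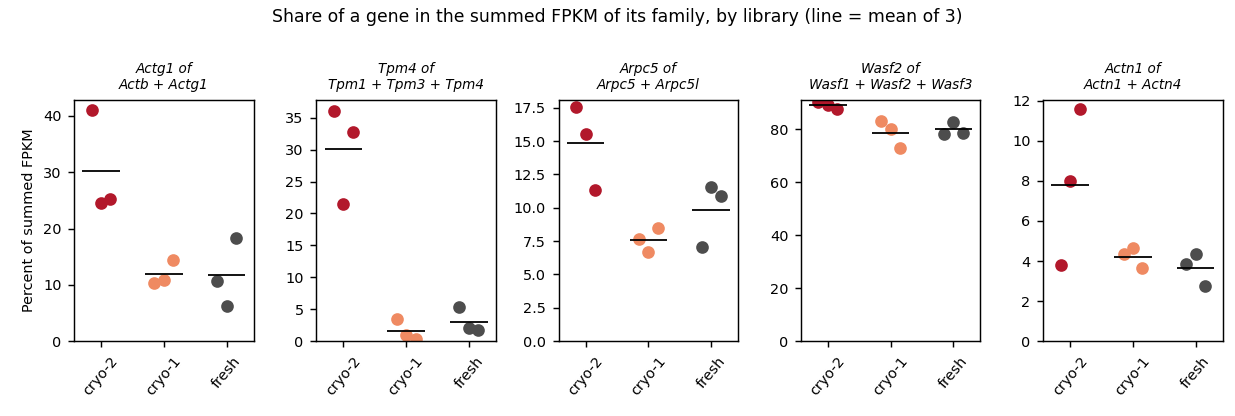
Percent of the summed FPKM of its family held by Actg1, Tpm4, Arpc5, Wasf2 and Actn1, by library, with the mean of 3 as a line; families are named above each panel. Actg1 and Tpm4 stand higher in every cryopreservation-2 library than in any other library, with means of 30.3% and 30.1%.

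Within the Arp2/3 complex, which starts branches on existing filaments, Arpc3 rose and no other of the 9 genes passed the test in the main edgeR fit. Arpc3, a small subunit of the complex, had 83.6, 93.1 and 122 CPM in cryopreservation-2, 64.7, 76 and 63.3 in cryopreservation-1 and 36.6, 36.2 and 42.3 in fresh libraries. The 3 groups did not overlap, with cryopreservation-1 between the other two. Arpc3 was 2.6-fold higher in cryopreservation-2 than in fresh oocytes (log2 1.38 ± 0.21 SE, edgeR adjusted p = 0.00916). This call held under all 20 alternatives, with a log2 between 0.90 and 1.66, the lowest with a correction for length and GC content. Cryopreservation-1 differed from fresh by a log2 of 0.83 ± 0.20 SE (edgeR unadjusted p = 0.00217, adjusted p = 1), and cryopreservation-2 from cryopreservation-1 by 0.55 ± 0.20 (edgeR adjusted p = 0.172). The latter difference was called under 1 of 20 alternatives, DESeq2 (adjusted p = 0.0424). No 50-base word of Arpc3 is found in another gene.

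The structural core of the complex is carried by Arpc2, which had 173, 203 and 224 CPM in cryopreservation-2, 298, 309 and 257 in cryopreservation-1 and 285, 371 and 256 in fresh libraries. The cryopreservation-2 libraries lay below all others, with a log2 difference of -0.60 ± 0.20 SE from fresh that missed the threshold (edgeR adjusted p = 0.108) and passed it under 2 of 20 alternatives, DESeq2 and the length and GC correction. Arpc4, its partner in the core, had 16.7, 20.4 and 24.0 CPM in cryopreservation-2, 29.1, 34.1 and 29.4 in cryopreservation-1 and 22.4, 31.9 and 31.1 in fresh libraries. It was lower in every cryopreservation-2 than in every cryopreservation-1 library and overlapped with fresh.

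The actin-related subunits Actr2 and Actr3 seed the new branch. Actr3 had 191, 97.3 and 91.5 CPM in cryopreservation-2, 92.7, 103 and 123 in cryopreservation-1 and 99.4, 74.3 and 92.0 in fresh libraries. Actr2 had 120, 68.8 and 64.6 CPM in cryopreservation-2, 56.8, 59.2 and 71.8 in cryopreservation-1 and 72.8, 56.2 and 67.6 in fresh libraries. In both genes replicate 1 of cryopreservation-2 was highest and the remaining libraries overlapped.

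The complex has alternative subunits, Arpc1a or Arpc1b and Arpc5 or Arpc5l, that in human cells give it different branching activity. Arpc1b had 865, 1180 and 1110 CPM in cryopreservation-2, 970, 1250 and 758 in cryopreservation-1 and 870, 1360 and 924 in fresh libraries, and the groups overlapped. Arpc1a had 3.07, 3.23 and 5.05 CPM in cryopreservation-2, 2.90, 1.86 and 1.35 in cryopreservation-1 and 0.0993, 2.10 and 1.81 in fresh libraries. All cryopreservation-2 libraries were above the others, without passing the test (log2 1.5 ± 0.83 SE against fresh, edgeR adjusted p = 0.329), and Arpc1b held at least 99.1% of the summed FPKM of the pair in every library. Arpc5l had 248, 229 and 261 CPM in cryopreservation-2, 263, 309 and 284 in cryopreservation-1 and 241, 317 and 249 in fresh libraries. Arpc5 had 26.8, 21.4 and 16.9 CPM in cryopreservation-2, 11, 11.2 and 13.3 in cryopreservation-1 and 9.26, 21.0 and 15.3 in fresh libraries. Its share of the pair's FPKM was 14.8% ± 3.17 in cryopreservation-2, 7.61% ± 0.889 in cryopreservation-1 and 9.82% ± 2.43 in fresh libraries (SD, n = 3 each), and Arpc5 passed the test in no comparison.

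None of the 5 activators of the Arp2/3 complex was called by edgeR. Wasl, the ubiquitous N-WASP that couples Cdc42 to the complex, had 112, 167 and 173 CPM in cryopreservation-2, 262, 218 and 164 in cryopreservation-1 and 252, 213 and 196 in fresh libraries. Cryopreservation-2 lay below fresh without overlap (log2 -0.55 ± 0.24 SE, edgeR adjusted p = 0.213). Cttn, the cortactin that stabilises branches, had 5.65, 6.91 and 8.68 CPM in cryopreservation-2, 13.7, 16.6 and 21.6 in cryopreservation-1 and 9.08, 9.05 and 31.7 in fresh libraries. It was lower in every cryopreservation-2 library than in any other (log2 -1.23 ± 0.48 SE against fresh, edgeR adjusted p = 0.165, and -1.29 ± 0.48 against cryopreservation-1, edgeR adjusted p = 0.175). The WAVE gene Wasf3 had 5.29, 4.69 and 7.85 CPM in cryopreservation-2, 14.6, 11.1 and 14.6 in cryopreservation-1 and 13.1, 6.96 and 6.98 in fresh libraries. It separated the 2 freezing methods but missed the threshold (log2 -1.18 ± 0.34 SE, edgeR adjusted p = 0.0929), while DESeq2 called it lower (log2 -1.13, DESeq2 adjusted p = 0.0215). Of the 3 WAVE genes, Wasf2 held most of the FPKM, with 89.0% ± 1.3 in cryopreservation-2, 78.7% ± 5.16 in cryopreservation-1 and 79.9% ± 2.53 in fresh libraries (SD, n = 3 each).

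The nucleators of unbranched filaments were not called by the main edgeR fit in any comparison. Fmn2, the formin that builds the oocyte's cytoplasmic meshwork, had 138, 103 and 159 CPM in cryopreservation-2, 88.3, 71.9 and 86.3 in cryopreservation-1 and 136, 99.8 and 94.4 in fresh libraries. Cryopreservation-1 lay below both other groups without overlap, and the log2 difference of cryopreservation-2 from cryopreservation-1 was 0.70 ± 0.23 SE (edgeR adjusted p = 0.123). Fmn2 was called in this comparison under 2 of 20 alternatives, with a log2 of 0.74 by DESeq2 (adjusted p = 0.0216) and 0.83 by edgeR with a correction for length and GC content (adjusted p = 0.0417). Spire1, its partner on vesicles, had 311, 206 and 188 CPM in cryopreservation-2, 371, 351 and 393 in cryopreservation-1 and 501, 295 and 360 in fresh libraries. It was lower in every cryopreservation-2 than in every cryopreservation-1 library and overlapped with fresh (log2 -0.71 ± 0.25 SE against fresh, edgeR adjusted p = 0.127). Spire2, the other Spire gene, had 0, 0.985 and 0.200 CPM in cryopreservation-2, 1.83, 1.41 and 0.984 in cryopreservation-1 and 1.44, 0.921 and 0.437 in fresh libraries, and Spire1 held at least 98.5% of the pair's FPKM in every library. The remaining 5 formins, Fmn1, Daam1, Diaph1, Diaph2 and Diaph3, had log2 fold changes of cryopreservation-2 against fresh between -2.16 and 0.22, the lowest being Diaph2, which was at 0 in 2 cryopreservation-2 libraries and 1 fresh library.

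The Ena/VASP proteins, which lengthen filaments at their tips, were low and not called by edgeR. Enah, the highest of the class by FPKM, had 63.4, 34.8 and 40.4 CPM in cryopreservation-2, 40.5, 47.5 and 44.4 in cryopreservation-1 and 58.9, 42.2 and 53.4 in fresh libraries, with overlapping groups. Evl had 3.97, 5.75 and 11.1 CPM in cryopreservation-2, 2.42, 2.91 and 3.84 in cryopreservation-1 and 6.01, 4.19 and 4.19 in fresh libraries. Vasp had 0.441, 1.22 and 1.00 CPM in cryopreservation-2, 1.59, 3.4 and 1.74 in cryopreservation-1 and 1.71, 0.618 and 1.83 in fresh libraries. Between the freezing methods Evl was higher and Vasp lower in every cryopreservation-2 library, and neither passed the test (edgeR adjusted p = 0.16 and 0.29).

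Among the monomer binding proteins, Tmsb10 rose in cryopreservation-2 oocytes. Tmsb10, a beta-thymosin that holds actin subunits out of filaments, had 21.4, 25.8 and 18.7 CPM in cryopreservation-2, 5.56, 3.2 and 2.03 in cryopreservation-1 and 3.93, 5.13 and 3.17 in fresh libraries. Every cryopreservation-2 library was above every other library, while cryopreservation-1 and fresh overlapped. Tmsb10 was 5.38-fold higher in cryopreservation-2 than in fresh oocytes (log2 2.43 ± 0.39 SE, edgeR adjusted p = 0.0109), a call that held under all 20 alternatives with a log2 between 2.11 and 2.63. It was 6.1-fold higher than in cryopreservation-1 oocytes (log2 2.61 ± 0.40 SE, edgeR adjusted p = 0.0131). That call held under 17 of 20 alternatives and ended without replicate 2 or replicate 3 of cryopreservation-1 (edgeR adjusted p = 0.0597 in each). Of its 50-base words 43.5% are shared with copies, and with 2 of these added its log2 fold change against fresh was still 2.43 (edgeR adjusted p = 0.0105).

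The other beta-thymosin, Tmsb4x, had at most 1.65 CPM and was at 0 in 1 fresh library. Profilin 1, which delivers subunits to growing ends, had 51.3, 103 and 118 CPM of Pfn1 in cryopreservation-2, 102, 95.4 and 44.5 in cryopreservation-1 and 77.7, 113 and 58.1 in fresh libraries, with overlapping groups. Pfn2, Cap1 and Cap2 stayed at or under 8.36 CPM in all libraries.

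The filament severing genes did not pass the edgeR test. Wdr1, which helps cofilin take filaments apart, had 128, 110 and 78.4 CPM in cryopreservation-2, 187, 163 and 187 in cryopreservation-1 and 165, 150 and 161 in fresh libraries. All 3 cryopreservation-2 libraries were below the others (log2 -0.59 ± 0.21 SE against fresh, edgeR adjusted p = 0.123, and -0.76 ± 0.21 against cryopreservation-1, edgeR adjusted p = 0.0754). Wdr1 was called lower than in cryopreservation-1 under 2 of 20 alternatives, DESeq2 (log2 -0.72, adjusted p = 0.0151) and limma on log2(FPKM + 1) with a mean of at least 1 FPKM (-0.67, adjusted p = 0.0493). The cofilin genes Cfl1 and Cfl2 and destrin (Dstn) had log2 fold changes of 0.04, 0.27 and 0.53 in cryopreservation-2 against fresh.

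The kinases Limk1 and Limk2 switch cofilin off and the phosphatases Ssh1 and Ssh2 switch it on. All 4 fitted differences of cryopreservation-2 from fresh and from cryopreservation-1 were negative, without a call by the main edgeR fit. Limk2 had 16.1, 26.7 and 30.1 CPM in cryopreservation-2, 55, 38.9 and 47.0 in cryopreservation-1 and 45.2, 40.8 and 51.6 in fresh libraries. The cryopreservation-2 libraries lay below all others (log2 -0.92 ± 0.27 SE against fresh, edgeR adjusted p = 0.0759). Ssh1 likewise lay below both other groups in every cryopreservation-2 library, with a log2 of -0.94 ± 0.28 SE against fresh (edgeR adjusted p = 0.0773). DESeq2 called both lower. With the length and GC correction, edgeR called Limk2 lower than in fresh oocytes (log2 -0.75, edgeR adjusted p = 0.0414).

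Capping protein, a pair of alpha and beta subunits, closes the growing end of filaments. Its beta subunit Capzb had 9.68, 14.5 and 15.7 CPM in cryopreservation-2, 10.9, 11.1 and 10 in cryopreservation-1 and 7.80, 5.02 and 4.54 in fresh libraries. Both frozen groups lay above all fresh libraries and overlapped with each other. Capzb was 2.29-fold higher in cryopreservation-2 than in fresh oocytes (log2 1.2 ± 0.31 SE, edgeR adjusted p = 0.0496), a call that held under 6 of 20 alternatives and was lost with a block on replicate number (edgeR adjusted p = 0.1). Of the libraries left out one at a time, removing replicate 1 of cryopreservation-2 kept this call and removing any other ended it (edgeR adjusted p between 0.0517 and 0.154). Cryopreservation-1 differed from fresh by a log2 of 0.88 ± 0.30 SE (edgeR unadjusted p = 0.0149, adjusted p = 1). Capza2, the higher alpha subunit, had 232, 98.7 and 70.6 CPM in cryopreservation-2, 124, 145 and 218 in cryopreservation-1 and 125, 168 and 196 in fresh libraries. Capza2 groups overlapped, and so did those of Capza1, for which 73.8% of 50-base words occur in other entries.

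Tropomyosins lie along filaments and decide which partners bind them. Tpm4 had 14.5, 8.35 and 11.2 CPM in cryopreservation-2, 2.27, 0.439 and 0.210 in cryopreservation-1 and 2.12, 0.992 and 0.973 in fresh libraries. Every cryopreservation-2 library was above every other library. Tpm4 was 8.32-fold higher in cryopreservation-2 than in fresh oocytes (log2 3.06 ± 0.78 SE, edgeR adjusted p = 0.0496) and 11.6-fold higher than in cryopreservation-1 oocytes (log2 3.54 ± 0.80 SE, edgeR adjusted p = 0.0467). These calls held under 9 and 7 of the 18 alternatives that could give them, and were lost without any 1 of the cryopreservation-2 or fresh libraries or without replicate 2 of cryopreservation-1 (edgeR adjusted p between 0.0531 and 0.145). The call against cryopreservation-1 was also lost without its replicate 3 (edgeR adjusted p = 0.13), and without its replicate 1 the log2 difference was 5.11. An antisense gene, Gm26586, covers 6.08% of the exon bases of Tpm4. Since the strand setting of the counting is not given, reads of the pair cannot be told apart over these bases. Larger overlaps include Arpc1b with Pdap1 (18.2%), Cfl1 with Snx32 (16.5%) and, on the same strand, Arpc4 with Ttll3 (12.2%). The called Actn4 shares 5.16% of its exon bases with Capn12.

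Tpm3 had 29.6, 36.1 and 22.6 CPM in cryopreservation-2, 79.0, 60.9 and 67.8 in cryopreservation-1 and 46.6, 58.5 and 73.5 in fresh libraries. All cryopreservation-2 libraries were below the others. As counted, Tpm3 was 2.02-fold lower in cryopreservation-2 than in fresh oocytes (log2 -1.02 ± 0.25 SE, edgeR adjusted p = 0.0437) and 2.35-fold lower than in cryopreservation-1 (log2 -1.23 ± 0.25 SE, edgeR adjusted p = 0.0326). The call against fresh was lost without any 1 library (edgeR adjusted p between 0.0576 and 0.154), and that against cryopreservation-1 without any 1 library of either frozen group (0.0557 to 0.14). With a block on replicate number both calls were lost (edgeR adjusted p = 0.0926 against fresh and 0.0761 against cryopreservation-1). The gene shares 62.4% of its 50-base words with Tpm3-rs7, a protein-coding entry of its own. Tpm3-rs7 had 56.6, 36.1 and 49.8 CPM in cryopreservation-2, 22.8, 18.5 and 15.4 in cryopreservation-1 and 26.9, 5.28 and 11 in fresh libraries. Of the reads given to the 2 entries, Tpm3-rs7 took 65.7%, 50.0% and 68.8% in cryopreservation-2, 22.4%, 23.3% and 18.6% in cryopreservation-1 and 36.6%, 8.28% and 13.0% in fresh libraries. The sum was 76.9 ± 8.03 CPM in cryopreservation-2, 88.2 ± 12.1 in cryopreservation-1 and 73.9 ± 10.4 in fresh libraries (SD, n = 3 each). Summed, the log2 differences of cryopreservation-2 were 0.06 ± 0.20 SE from fresh (edgeR adjusted p = 0.911) and -0.20 ± 0.20 from cryopreservation-1 (edgeR adjusted p = 0.684). The read split between the 2 entries therefore moved while their sum overlapped in all groups, and how the counting divided shared reads is not given in the sources used here.

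**Figure D3:**
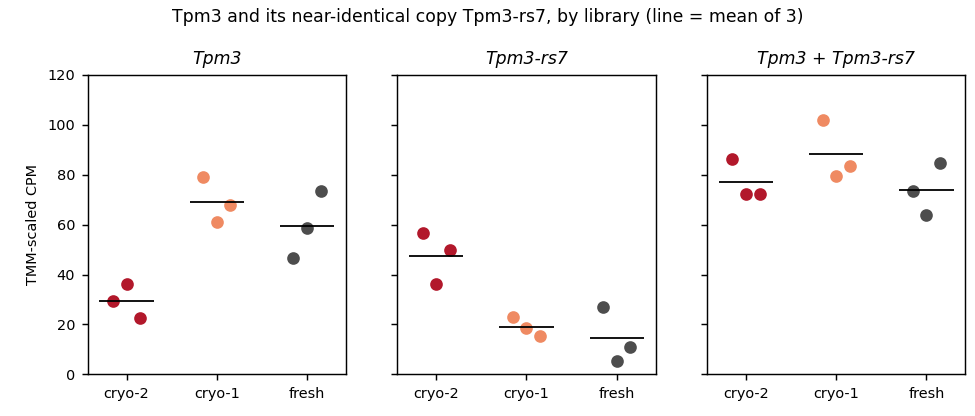
TMM-scaled CPM of Tpm3, of its near-identical copy Tpm3-rs7 and of their sum, by library, with the mean of 3 as a line. Tpm3 is lowest and Tpm3-rs7 highest in cryopreservation-2 libraries, and the sums, at means of 76.9, 88.2 and 73.9 CPM, overlap.

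Tpm1, the third tropomyosin, had log2 fold changes of 0.44 and 0.19 in cryopreservation-2 against fresh and against cryopreservation-1. By FPKM, Tpm4 made up 30.1% ± 7.59 of the 3 tropomyosins in cryopreservation-2, 1.58% ± 1.66 in cryopreservation-1 and 3.04% ± 2.05 in fresh libraries (SD, n = 3 each), with reads of Tpm3-rs7 left out of the sum.

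The crosslinker Actn4, which bundles filaments, had 117, 185 and 126 CPM in cryopreservation-2, 369, 255 and 338 in cryopreservation-1 and 287, 207 and 284 in fresh libraries. Every cryopreservation-2 library was below every other library. Actn4 was 2.25-fold lower in cryopreservation-2 than in cryopreservation-1 oocytes (log2 -1.17 ± 0.24 SE, edgeR adjusted p = 0.0353), a call that held under 9 of 20 alternatives. Its difference from fresh missed the threshold (log2 -0.87 ± 0.24 SE, edgeR adjusted p = 0.0674) and passed it under 1 of 20, DESeq2 (adjusted p = 0.0154). The call against cryopreservation-1 was lost without any 1 library of either frozen group or without fresh replicate 1 (edgeR adjusted p between 0.0505 and 0.157). With a block on replicate number it was lost as well (edgeR adjusted p = 0.087). Its relative Actn1 had 0.37 and -0.18 as log2 fold changes of cryopreservation-2 against fresh and against cryopreservation-1.

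The membrane linkers were carried almost entirely by Rdx, which had 1720, 1390 and 1620 CPM in cryopreservation-2, 1660, 1420 and 1460 in cryopreservation-1 and 2320, 2550 and 1620 in fresh libraries. The fresh libraries were higher in 2 of 3 and the groups overlapped at replicate 3 (log2 -0.46 ± 0.20 SE in cryopreservation-2 against fresh, edgeR adjusted p = 0.218, and -0.51 ± 0.20 in cryopreservation-1 against fresh, edgeR unadjusted p = 0.0279, adjusted p = 1). Msn had 0.575, 0.547 and 0.183 CPM in cryopreservation-2, 1.62, 0.993 and 0.613 in cryopreservation-1 and 2.87, 1.38 and 2.44 in fresh libraries. The moesin gene was lower in every cryopreservation-2 library than in any other, and this difference missed the threshold (log2 -2.35 ± 0.69 SE against fresh, edgeR adjusted p = 0.0759). Under 1 of 20 alternatives, DESeq2, Msn was called lower than in fresh oocytes (DESeq2 adjusted p = 0.00951). Ezrin (Ezr) stayed at or under 1.97 CPM.

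The myosin heavy chains were not called by edgeR. Myo5b, a motor that carries vesicles along actin, had 306, 372 and 221 CPM in cryopreservation-2, 446, 356 and 401 in cryopreservation-1 and 307, 274 and 405 in fresh libraries, with overlapping groups. The nonmuscle heavy chains Myh9 and Myh10 and the filopodial Myo10 had log2 fold changes of 0.57, 0.32 and -0.33 in cryopreservation-2 against fresh.

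**Figure D4:**
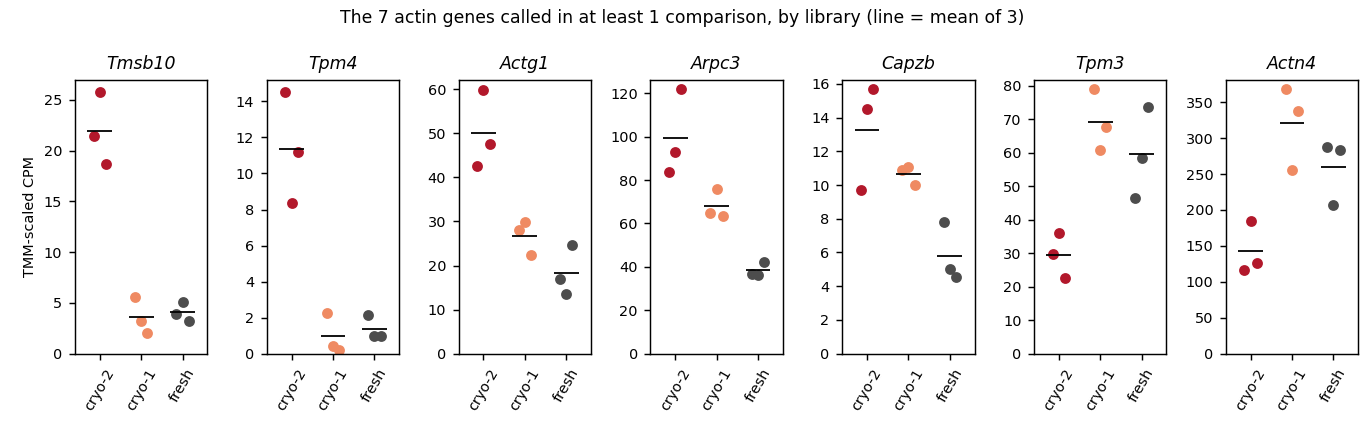
TMM-scaled CPM of the 7 members called in at least 1 comparison, by library, with the mean of 3 as a line. Tmsb10, Tpm4, Actg1 and Arpc3 are highest in cryopreservation-2, and Tpm3 and Actn4 are lowest there.

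Across all 3 groups, 5 of 56 members were called for any difference (8.93%, against 3.53% of all genes): Actg1, Arpc3, Tmsb10, Tpm3 and Tpm4 (edgeR F test over groups). Libraries did not overlap for 21 of 56 members in cryopreservation-2 against fresh, a share of 37.5% against 27.5% of all genes. Of these, 11 were higher (19.6%, against 15.1%) and 10 lower (17.9%, against 12.4%). For cryopreservation-1 against fresh it was 7 of 56 (12.5%, against 10.1%), 4 higher (7.14%, against 6.37%) and 3 lower (5.36%, against 3.72%). For cryopreservation-2 against cryopreservation-1 it was 26 of 56 (46.4%, against 29.0%), 11 higher (19.6%, against 13.8%) and 15 lower (26.8%, against 15.2%). With a further 2-fold difference of means and a mean of at least 1 CPM, 9 members remained in cryopreservation-2 against fresh (16.1%, against 11.9%), 9 against cryopreservation-1 (16.1%, against 11.0%) and none in cryopreservation-1 against fresh (1.96% of all genes). The median log2 fold change of the members was -0.11 in cryopreservation-2 against fresh, where that of all genes was -0.06, with the middle 50% of members between -0.56 and 0.37. For cryopreservation-1 against fresh it was 0.00 against 0.02, and for cryopreservation-2 against cryopreservation-1 it was -0.06 against -0.07. The comparisons share libraries, so their members' values are not independent. At an unadjusted p under 0.05, cryopreservation-1 against fresh had 3 of 56 members (5.36%, against 4.72% of all genes), Arpc3, Capzb and Rdx. Neither DESeq2 nor limma called any member there (0.245% and 0.0% of all genes).

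**Figure D5:**
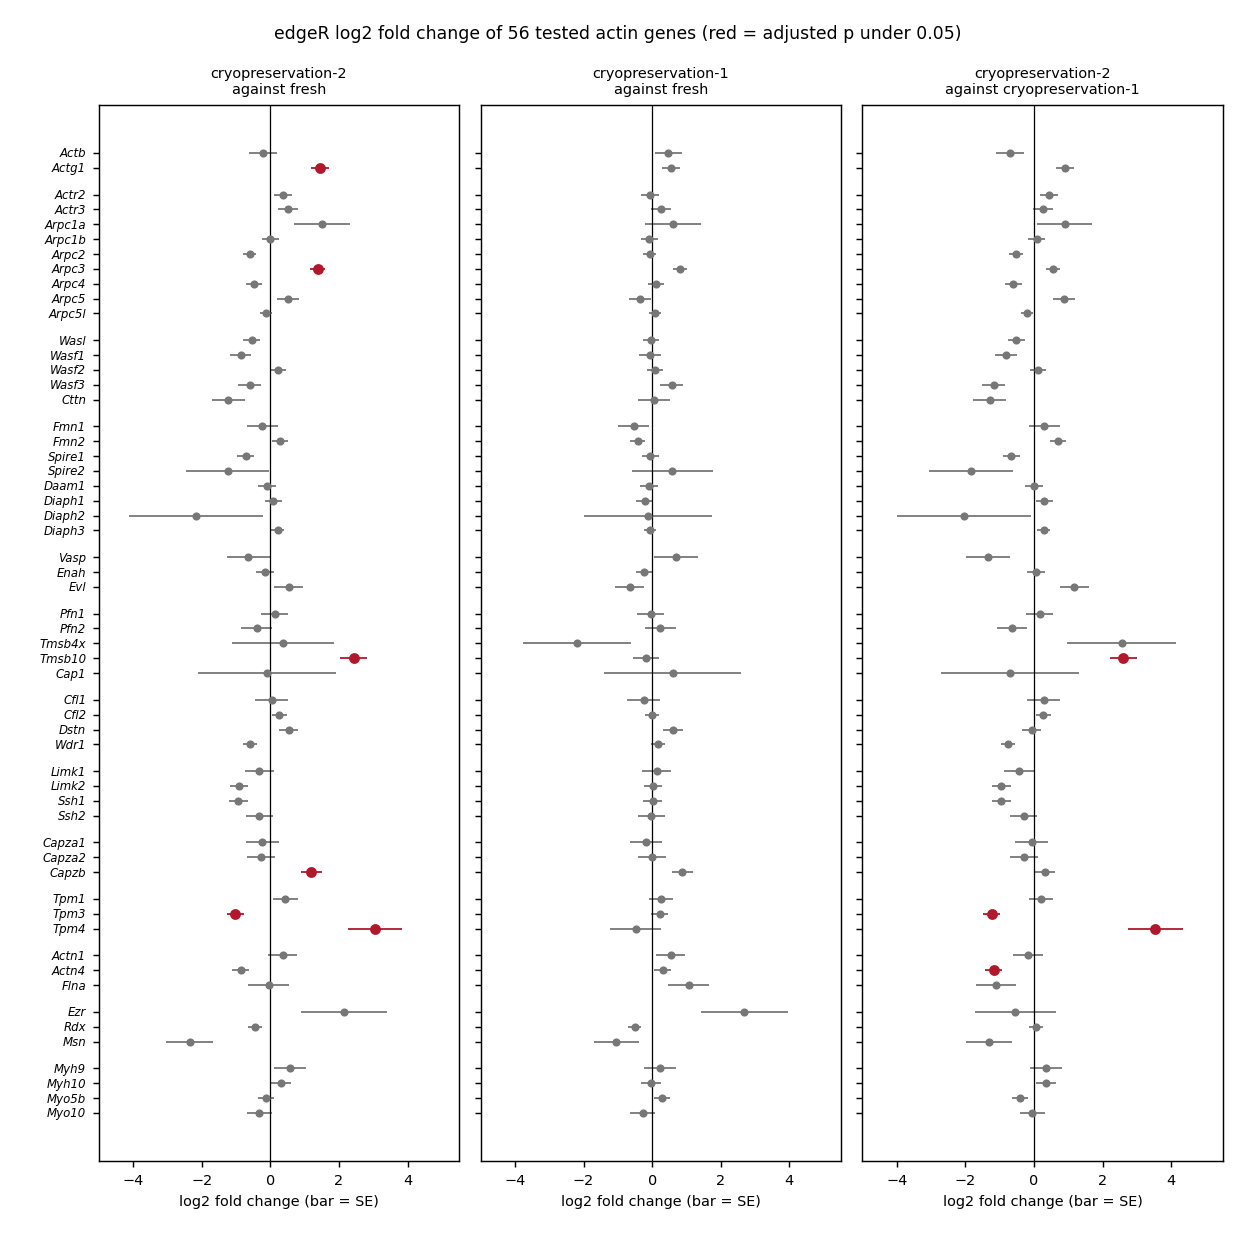
edgeR log2 fold change with SE of the 56 tested members in the 3 comparisons, by role from top to bottom, with members called at an adjusted p under 0.05 in red. The called members stand at 1.2 or above or at -1.02 or below, and none is red in the middle panel.

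Transcript length moved with the fold change. Across the 56 members, Spearman's correlation of length with the log2 fold change of cryopreservation-2 against fresh was -0.33, and across 17520 genes it was -0.22, which is a description since genes share libraries. Tmsb10 and Arpc3 have transcripts of 690 and 899 bases, against a median of 3134.5 for the tested members. With a correction for length and GC content, 7 members were called in cryopreservation-2 against fresh, where 7.75% of all genes were called, 4 higher (Actg1, Arpc3, Tmsb10 and Tpm4) and 3 lower (Arpc2, Limk2 and Tpm3).

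Among 122 other actin regulators, 102 were tested and 5 were called in cryopreservation-2 against fresh (4 higher and 1 lower) and 5 in cryopreservation-2 against cryopreservation-1 (4 higher and 1 lower), where 5.38% and 2.75% of all genes were called. In cryopreservation-1 against fresh edgeR called none, DESeq2 called 1, and 6 had an unadjusted edgeR p under 0.05 (0.0%, 0.245% and 4.72% of all genes). Against fresh, Myl6, a myosin light chain, was 6.44-fold higher in cryopreservation-2 (38.6 ± 12.1 CPM in cryopreservation-2, 5.9 ± 4.78 CPM in cryopreservation-1 oocytes, 6 ± 2.12 CPM in fresh oocytes, SD over 3 libraries). The smooth muscle myosin Myh11 was 1.84-fold higher, and the membrane-linked myosin Myo1c was 2.63-fold lower (edgeR adjusted p between 0.0277 and 0.0404 for these 3 genes). Against cryopreservation-1, the myosin Myo1e was 2.97-fold lower in cryopreservation-2 (edgeR adjusted p = 0.0234). Without the 3 libraries with the most genes at 0, none of the 102 was called in any comparison. In that setting 1.07% of all genes were called in cryopreservation-2 against fresh and 0.0% in each other comparison of a pair of groups.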

How the data were processed

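Poly(A) RNA libraries were made by the dUTP method, per the labels' protocols. Nothing in the labels ties replicates to separate animals or cultures, and the p-values therefore cover the spread among libraries, possibly technical. The submitters' processing notes name cutadapt 1.9, HISAT2 2.0.4, StringTie 1.3.4d and GRCm38. The strand setting of the counting program is not given in the sources used here. For each of 26358 genes the authors deposited a read count and an FPKM for every library. The count columns, so named in the file headers, hold whole numbers whose totals differ between libraries, as raw reads do. The FPKM columns are, by their name in the file headers, scaled by the authors to length and library size.

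Here edgeR 4.0.16 (R 4.3.3) was fitted to the counts of all 9 libraries, with TMM scaling, filterByExpr (minimum count 10, total 15), a quasi-likelihood test, Benjamini-Hochberg adjustment over the 17545 genes tested, and a call at an adjusted p under 0.05. The common biological coefficient of variation was 0.662. Replicate libraries of a group differed beyond sampling noise (chi-square per degree of freedom 85.8 to 326). Fold changes carry the SE of the fit. Alternatives used DESeq2 1.42.0, limma 3.58.1 on log2(FPKM + 1 or 0.1), DESeq2-type size factors, no filter, a length and GC correction, each library left out, and a replicate block. A block on replicate number was checked by the correlation of deviations from group means. Same-numbered fresh and cryopreservation-1 libraries correlated at 0.172, 0.239 and 0.294. Replicate 3 of cryopreservation-1 and replicate 1 of cryopreservation-2, of unlike number, correlated at 0.314. The correlations are a pattern in the data only and do not show that the numbers pair libraries. Cryopreservation-2 libraries correlated at -0.301 to 0.106 with same-numbered libraries of the other groups. Copies of a gene were found by shared 50-base words of GENCODE transcripts (GRCm38). The edgeR fit was tested on data simulated from its own dispersions, a test that cannot show whether its model suits these libraries.

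Values in every library are given for members called in any comparison, the actins, Arp2/3 genes, Fmn2, Spire1 and Spire2, the member highest by FPKM in each role, and members whose groups do not overlap with a 2-fold difference and 1 CPM; of the called other regulators, at most the 4 with the smallest p in each comparison are named. Results of 1 group of these regulators are not reported here, and its places among the 4 were not filled with others. The members, lists and alternatives were chosen with earlier results of these data known.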

Additional observations from a re-analysis of the deposited data

How the results depend on the processing

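Arpc3 and Tmsb10 kept their calls in cryopreservation-2 against fresh under all 20 alternatives, Actg1 under 17, Capzb under 6 and Tpm3 under 4 of 20, and Tpm4 under 9 of 18. Adding the reads of Tpm3-rs7 turned the Tpm3 difference of cryopreservation-2 from fresh to a log2 of 0.057. The other called members kept their direction in every alternative that gave a value.

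Counts of called members were 6 in cryopreservation-2 against fresh, 4 in cryopreservation-2 against cryopreservation-1 and 5 for any difference among groups. DESeq2 gave 11 in each of these, where it called 14.1%, 10.8% and 12.7% of all genes. With no filter on low counts there were 3 against fresh and 2 against cryopreservation-1 (2.55% and 1.33% of all genes). Leaving out 1 library at a time gave 2 to 4, 0 to 3 and 1 to 3 (1.25% to 4.22%, 0.0818% to 2.61% and 0.628% to 2.55% of all genes). Leaving out the library of each group with the most genes at 0, an alternative chosen after the data were seen, gave 3, 0 and 0 (1.07%, 0.0% and 0.27% of all genes). In cryopreservation-1 against fresh no alternative called a member, where the alternatives called 0.0% to 0.245% of all genes.

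With the replicate block, the counts were 4 in cryopreservation-2 against fresh, 2 in cryopreservation-2 against cryopreservation-1, 3 for any difference and 0 in cryopreservation-1 against fresh (2.85%, 1.31%, 1.61% and 0.0% of all genes). Capzb and Tpm3 were lost against fresh and Actn4 and Tpm3 against cryopreservation-1. Between fresh and cryopreservation-1, every library correlated best with its own number in the other of these groups, a hint from the data and not from the design; 3 of them correlated more with a cryopreservation-2 library of another number.

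Of the other actin regulators, 5 were called in each comparison of cryopreservation-2 (5.38% of all genes against fresh and 2.75% against cryopreservation-1). Against fresh, DESeq2 and both filtered limma fits gave 8 each, where they called 14.1%, 18.9% and 17.9% of all genes. The 2 groups alone, no filter and the replicate block gave 1 each there (2.68%, 2.55% and 2.85% of all genes). Leaving out 1 library gave 0 to 2 against fresh and 0 to 6 against cryopreservation-1 (1.25% to 4.22% and 0.0818% to 2.61% of all genes). Leaving out the 3 libraries gave 0 in both (1.07% and 0.0% of all genes). Against cryopreservation-1, DESeq2 gave 13, the length and GC correction 8 and the replicate block 3 (10.8%, 4.54% and 1.31% of all genes). In cryopreservation-1 against fresh DESeq2 gave 1 (0.245% of all genes). The cause of these shifts was not tested.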
